A study of Mus musculus with 5480 samples.

Results

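The ADAMTS genes encode secreted metalloproteases that cut proteins of the extracellular matrix. The members described here are Adamts1, Adamts2, Adamts4, Adamts5, Adamts8, Adamts9, Adamts10, Adamts12, Adamts15 and Adamts17, which were taken by name from a table of read counts. All 10 were found among its 18072 genes. The table also held 8 other ADAMTS genes, which serve below as part of the surrounding pathway. The cells were single mesenchymal cells of the distal mouse lung, that is, fibroblasts, smooth muscle and pericytes, sorted by flow cytometry and sequenced in plates. There were 5480 cells from 10 mice, 1 female and 1 male in each of 5 groups. Of these groups, 4 breathed normal air and were taken at embryonic day 18.5 (E18.5) or at postnatal days 1, 7 and 21 (P1, P7 and P21), and the fifth was taken at P7 after hyperoxia. The labels give no strain, no genotype and no oxygen concentration or duration. A value is therefore backed by 2 mice at most in each group, and the mouse, not the cell, was the replicate.

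Each ADAMTS protease carries a metalloprotease domain followed by thrombospondin repeats that help it find its substrate. Several members, ADAMTS1, ADAMTS4, ADAMTS5, ADAMTS8, ADAMTS9 and ADAMTS15, are known to cut large aggregating proteoglycans such as versican, the product of Vcan. ADAMTS2 removes the amino-terminal propeptide of fibrillar procollagens, ADAMTS12 can cut cartilage oligomeric matrix protein, and ADAMTS10 and ADAMTS17 bind fibrillin microfibrils and have little known proteolytic activity. TIMP3, a matrix-bound inhibitor, blocks several of these enzymes, and the endocytic receptor LRP1 clears some of them from the matrix.

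The 2 members with the highest levels per kilobase of exon were also the ones for which the cell type of the peak differed most plainly, Adamts1 in airway smooth muscle and Adamts2 in adventitial fibroblasts. The 250 bases upstream of the transcription start of each are shown so that the starting points of the main patterns can be seen. They come from RefSeq on build GRCm38.p6 and run 5′ to 3′ toward the start on the gene's strand, chr16:85803114-85803363 (minus strand) for Adamts1 and chr11:50601835-50602084 (plus strand) for Adamts2. Capitals mark the TATA box (TATAAA) and the GC box (GGGCGG), searched on both strands, so that CCGCCC marks a GC box on the other strand.
Adamts1: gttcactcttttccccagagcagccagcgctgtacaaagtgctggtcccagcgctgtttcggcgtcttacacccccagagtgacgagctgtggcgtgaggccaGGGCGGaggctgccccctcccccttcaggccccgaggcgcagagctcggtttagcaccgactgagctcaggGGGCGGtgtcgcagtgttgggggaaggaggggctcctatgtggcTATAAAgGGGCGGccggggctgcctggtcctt
Adamts2: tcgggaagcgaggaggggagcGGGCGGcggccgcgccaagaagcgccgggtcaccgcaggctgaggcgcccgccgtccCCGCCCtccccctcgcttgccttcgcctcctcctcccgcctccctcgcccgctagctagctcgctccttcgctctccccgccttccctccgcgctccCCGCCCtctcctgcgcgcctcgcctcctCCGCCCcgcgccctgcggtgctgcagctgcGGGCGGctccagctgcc
The Adamts1 window held 1 TATA box, at position -32 from the start, and 3 GC boxes, whereas the Adamts2 window held no TATA box and 5 GC boxes. Of 32851 RefSeq promoter windows of this length, 12.4% held a TATA box and 32.7% a GC box. No AP-1 site (TGANTCA), cyclic AMP response element (TGACGTCA) or CArG box was found in either window. Adamts9, Adamts12 and Adamts17 also had an entry and showed no TATA box, with 1 GC box in Adamts9 alone. These matches describe letters only and say nothing of binding.

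The median cell held 774305 reads, and the range was 39358 to 5177020. No molecular identifiers are named, so a read is not a molecule, and intervals and limits below cover counting error only. The main sequencing run differed between groups. Each hyperoxia mouse had a run to itself, the 4 males in normal air shared 1 run, the females at E18.5 and P1 shared another, and the females at P7 and P21 each had their own. Hyperoxia and run therefore cannot be told apart, and changes after P1 lie within a run in males only. Of the cells, 69 came from a CD31 sort and 2 from a CD45 sort. In every library of the 6 cell classes tested below, the class's own marker genes were detected.

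Per kilobase of exon, the family was led by Adamts1 and Adamts2. Levels by the authors' subtype labels are a description, without a test, because those labels had been assigned from the same cells. They are given in CPM, the counts of a gene scaled to the same total in each library, where a library is the sum of at least 10 cells of a subtype from 1 mouse, as mean ± SD over the mice that had one. There were 64 such libraries in 15 of the 16 subtypes. Levels of different genes can be compared only per kilobase of exon. On that scale the median over whole mice was 92.2 CPM per kb for Adamts1, 31.6 for Adamts2 and 18.9 for Adamts10, and it lay between 3.34 (Adamts9) and 11.6 (Adamts8) for the other members. On the same scale the 10 members together reached 507.4 ± 19.6 CPM per kb in airway smooth muscle (n = 2). They reached 328.8 ± 8.11 in alveolar fibroblasts (n = 2) and 308.55 ± 0.302 in adventitial fibroblasts (n = 2), against 99.3 ± 18.7 in myofibroblasts (n = 6) and 96.7 ± 51.5 in pericytes (n = 8). Striated muscle, 16 cells of 1 mouse, was at 3.71 CPM per kb. Adamts1 alone made up 74.5% of the family's sum per kb in airway smooth muscle, and Adamts2 made up 42.5% of it in adventitial fibroblasts.

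**Figure D1:**
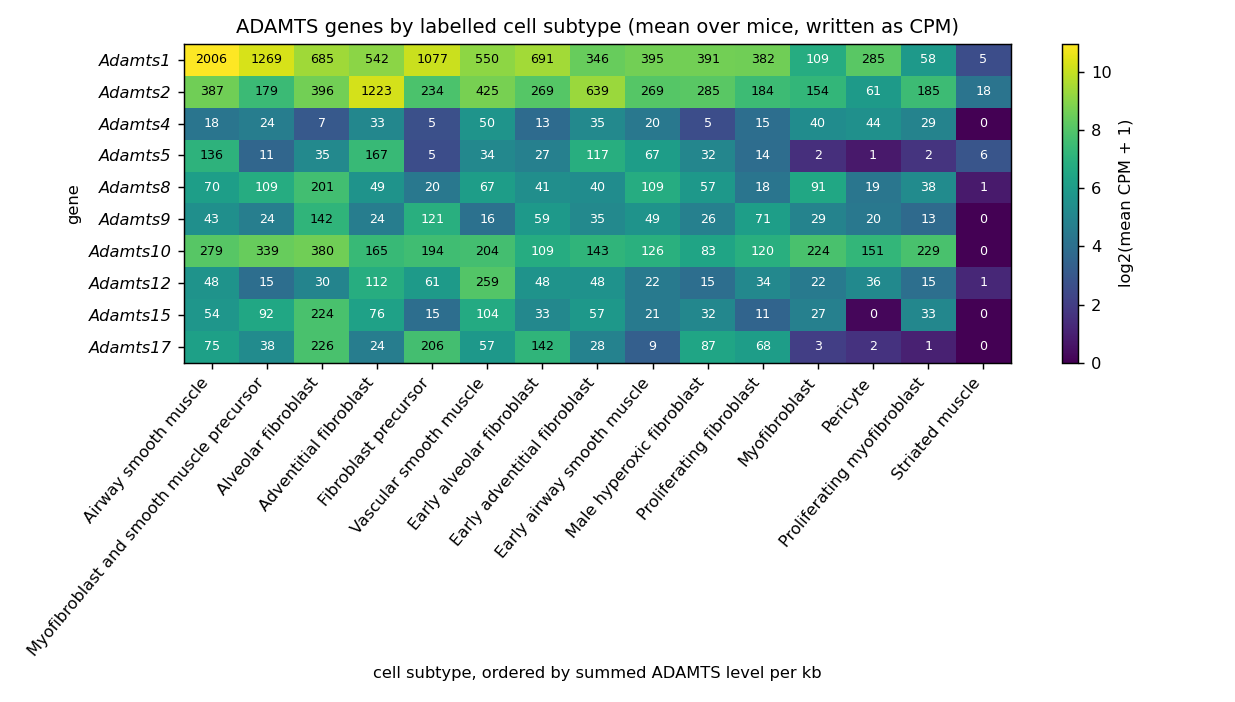
Mean level of each ADAMTS gene (rows) in each labelled cell subtype (columns, ordered by the family's summed level per kilobase). Colour is log2(mean CPM + 1), and each cell of the plot gives the mean CPM over mice. Adamts1 in airway smooth muscle (2006 CPM) and Adamts2 in adventitial fibroblasts (1223 CPM) stand highest, and the columns for pericytes, myofibroblasts and striated muscle hold the lowest values of Adamts5 and Adamts17.

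Among the proteases of aggregating proteoglycans, Adamts1 was highest in airway smooth muscle, the muscle around the conducting airways. It stood there at 2104 CPM in the female and 1909 CPM in the male mouse at P21, the one age at which this later subtype was found in at least 10 cells. Next by subtype mean, ages together, came the precursors of myofibroblasts and smooth muscle at E18.5 with 1269 ± 101.8 CPM (n = 2) and the fibroblast precursors at E18.5 with 1077.3 ± 137.6 CPM (n = 2), whose ranges (1197 to 1341 and 980 to 1175 CPM) lay apart but close. Adventitial fibroblasts at P21 stood at 582.8 and 500.8 CPM, below every library of these 3 subtypes. On the scaled CPM of the class tests below, alveolar fibroblasts had a mean of 1450.4 at E18.5, from few cells. At P21 their mean was 812.7, against 615.8 in adventitial fibroblasts on that scale. With cells thinned to 100000 reads each, Adamts1 was detected in 94.8% and 85.2% of the airway smooth muscle cells at P21. Without thinning these shares were 96.6% and 85.5%.

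The other 5 proteoglycan-cutting members had lower levels per kilobase than Adamts1 over whole mice, and most had a leading cell type of their own. Adamts5, whose product is the main aggrecan-cutting enzyme of mouse cartilage, was found at 167.01 ± 11.0 CPM in adventitial fibroblasts (n = 2) and 135.6 ± 31.7 in airway smooth muscle (n = 2), with ranges that lay apart but close (159.2 to 174.8 and 113.1 to 158.03 CPM). It was at 0 to 3.21 scaled CPM in all 8 pericyte libraries. Adamts8 was highest in alveolar fibroblasts at P21 (107.7 and 293.9 CPM), but the spread between these mice covers the early airway smooth muscle (109.1 ± 44.3, n = 6) and the contractile precursors (109.4 ± 31.5, n = 2). Adamts9 stood at 141.8 ± 23.7 CPM in alveolar fibroblasts (n = 2) and 120.8 ± 16.8 in fibroblast precursors (n = 2), which do not differ beyond their spread. Adamts15 stood at 224.2 ± 10.9 CPM in alveolar fibroblasts (n = 2) and 103.7 ± 36.2 in vascular smooth muscle (n = 8), where no library (58.9 to 149.4 CPM) reached the alveolar values (231.9 and 216.5 CPM). In pericytes Adamts15 was at or under 0.921 scaled CPM in all 8 libraries. Adamts4 was low in every subtype. Its highest mean was 49.8 ± 36.7 CPM in vascular smooth muscle (n = 8), which was not distinct from pericytes (43.8 ± 29.6, n = 8) or myofibroblasts (39.6 ± 15.3, n = 6).

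Adamts2, the procollagen N-proteinase, marked the adventitial fibroblasts, which surround airways and larger vessels. The later adventitial fibroblasts at P21 held 1250 CPM in one mouse and 1197 CPM in the other, and a read was found in 90.5% and 98.01% of their thinned cells. The early adventitial fibroblasts held 639.3 ± 170 CPM (n = 8, 367.7 to 874.8 CPM). Vascular smooth muscle followed at 424.5 ± 125.3 CPM (n = 8), alveolar fibroblasts at 396.1 ± 44.9 CPM (n = 2), and these do not differ beyond their spread. Adamts12 showed a single main place, vascular smooth muscle, at 258.6 ± 138.5 CPM (n = 8, 145.4 to 570.5 CPM), and stood next highest in adventitial fibroblasts at 112.2 ± 46.2 CPM (n = 2, 79.5 to 144.8 CPM).

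The 2 microfibril-associated members differed from each other. Adamts10 was broad, between 83 and 380 CPM in every subtype except striated muscle. It was highest in alveolar fibroblasts (544.99 and 214.1 CPM, a spread that covers the next 3 subtypes), and it stood at 228.5 ± 14.5 CPM in proliferating myofibroblasts (n = 3). Per kilobase it was the highest of the 10 members there and in myofibroblasts, at 27.7 and 27.1 CPM per kb. Adamts17 followed the alveolar lineage, with 226.4 ± 30.5 CPM in alveolar fibroblasts (n = 2), 205.8 ± 21.8 in fibroblast precursors (n = 2) and 142.4 ± 33.3 in early alveolar fibroblasts (n = 8). The first 2 of these do not differ beyond their spread. In myofibroblasts no library of Adamts17 exceeded 11.4 scaled CPM, and in pericytes 5 of 8 libraries lay at or under 0.0615 scaled CPM.

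Changes with age and hyperoxia were tested in 6 classes, each of which takes in the early and the later subtype where both exist. These are alveolar fibroblasts, adventitial fibroblasts, airway smooth muscle, vascular smooth muscle, myofibroblasts and pericytes. Cells labelled as precursors, proliferating cells, striated muscle or male hyperoxic fibroblasts were in none of these classes. The last of these labels reached at least 10 cells in 1 mouse. Reads were summed per mouse and class and compared with edgeR's quasi-likelihood test, with Benjamini-Hochberg adjustment over all genes tested and a threshold of 0.05. Levels from here on are CPM scaled by edgeR's TMM factors. Cells of 1 class are a sample of reads per mouse, so fewer transcripts per cell and fewer expressing cells cannot be told apart in these sums. Simulated 4-fold changes in 200 genes were recovered in 0% to 21.5% of cases, depending on the class, so a change that missed the threshold cannot be read as no change.

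Adamts1 rose in airway smooth muscle between P7 and P21. Its level was 495.01 CPM in the female and 433.7 CPM in the male at P1, 441.8 and 260.6 CPM at P7, 2412 and 2214 CPM at P21, and 257.1 and 351.3 CPM at P7 in hyperoxia. Both P21 mice lay above all 6 younger mice. The P7 mice in normal air overlapped both the P1 and the hyperoxia mice, and both P1 mice lay above both hyperoxia mice. The rise was 6.59-fold on the means, 5.46-fold in females and 8.50-fold in males, the sex whose P7 and P21 cells shared a run. It gave a log2 change of 2.74 (SE 0.374, edgeR adjusted p = 0.0129), in a comparison that 1.13% of 13496 genes passed. The test of any change with age in this class passed as well (edgeR adjusted p = 0.0103, with 1.33% of all genes past it). The rise passed under 13 of the 15 alternatives that altered the fit of this class, with log2 changes of 2.36 to 3.17. Its adjusted p was 0.127 without the male P7 mouse and 0.058 with only the P7 and P21 mice in the fit, and that of any change with age was 0.0542 without the male P21 mouse.

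**Figure D2:**
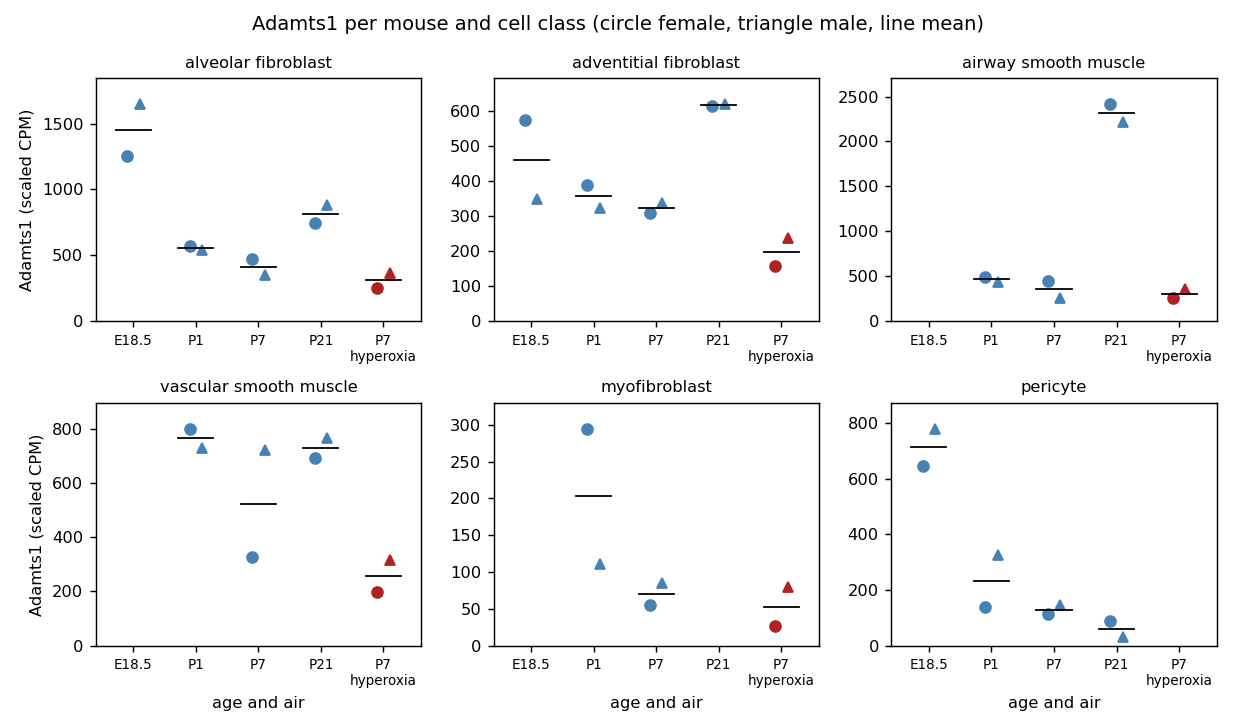
Adamts1 level in scaled CPM (vertical axis, linear, from 0, with its own range in each panel) per mouse in the 6 cell classes, by age and air (horizontal axis). Circles are females, triangles males, bars the mean of a group, red hyperoxia. In airway smooth muscle both P21 mice (2412 and 2214 CPM) lie above all others, and in the alveolar fibroblasts both E18.5 mice, of 14 and 24 cells, lie highest.

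Other readouts of airway smooth muscle moved between the same ages. Every cell of the class at P7 carried the early label, and 95% at P21 the later one. A list of 15 early response genes such as Fos, Jun, Egr1 and Atf3, which cells switch on within minutes of a stimulus and which also respond to tissue dissociation, was added after the values of Adamts1 had been seen. Its summed level was 16602 and 14710 CPM at P7 and 74646 and 58463 CPM at P21. Of its 15 genes, 9 rose, none fell, and the median log2 change was 2.16, where 1.13% of all genes passed. In vascular smooth muscle the same list went from 11584 and 12230 CPM to 31297 and 35526 CPM, and all 15 genes had a positive change. Adamts1 had a log2 change of 0.55 there (edgeR adjusted p = 0.834), in a comparison that recovered 2% of simulated 4-fold changes. The list's part in the Adamts1 result was not tested. The 6 adventitial markers summed to 544.8 to 545.5 CPM in airway smooth muscle at P7 and 1733 to 2459 CPM at P21, with 1 or 2 of them at 0 at P21 (Pi16, and Clec3b in the male). Adamts1 stood at 613.7 and 617.9 CPM in adventitial fibroblasts at P21. Summed markers of myofibroblasts were at 18001 to 18521 CPM at P7 and 5554 to 8436 CPM at P21. Myofibroblasts themselves held 6020 to 7392 CPM of this list at P7 in normal air, so it is not particular to them. In airway smooth muscle the vascular smooth muscle markers were at 12841 to 15500 CPM and then 3743 to 4154 CPM. Those of endothelium were at 102.6 to 129.1 CPM and then 45.1 to 65.7 CPM. The 6 airway smooth muscle markers were at 5971 to 7960 CPM at P7 and 6847 to 7468 CPM at P21, with none at 0. The part of the marker lists in the Adamts1 result was not tested.

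In the other classes Adamts1 had its own course. In alveolar fibroblasts it was at 1256 and 1645 CPM at E18.5. It stood at 568.5 and 542.5 CPM at P1, 469.2 and 347.8 CPM at P7 and 743.2 and 882.2 CPM at P21, so that both P21 mice lay above both P7 mice (log2 0.98, SE 0.35, edgeR adjusted p = 0.62). In adventitial fibroblasts it stood at 308.5 and 335.8 CPM at P7 and at 613.7 and 617.9 CPM at P21, again without overlap (log2 0.93, SE 0.35, edgeR adjusted p = 0.432). In pericytes it was at 646.6 and 777.8 CPM at E18.5, 111.95 and 146.97 CPM at P7 and 89.6 and 31.4 CPM at P21, so that both P21 mice lay below both P7 mice. Whether the change from P7 to P21 differed between classes was tested directly for all 10 members, and none passed, although 4 had an unadjusted p under 0.05 and limma voom called 2. For Adamts1 the adjusted p was 0.248 and the unadjusted p 0.0025 (edgeR, class by age terms), in a test that 31 of 15616 genes (0.199%) passed. Averaged over alveolar fibroblasts, adventitial fibroblasts, airway smooth muscle and vascular smooth muscle, Adamts1 rose from P7 to P21 with a log2 change of 1.32 (SE 0.269, limma adjusted p = 0.0357). Of the 15 early response genes, 10 rose in the same average, where 1.97% of all genes passed. All 15 had a positive change, with a median of 1.47. In adventitial fibroblasts their sum went from 15203 and 13367 CPM at P7 to 35420 and 29647 CPM at P21, and none of the 15 passed there. In alveolar fibroblasts it went from 13197 and 5153 CPM to 23807 and 8106 CPM, values that overlap between the ages. Their part in the averaged Adamts1 result was not tested.

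Adamts10 was the other member that rose in the average of the 4 classes, by 1.37 on the log2 scale (SE 0.312, limma adjusted p = 0.0493), where 1.97% of 16550 genes passed. In alveolar fibroblasts it went from 92.9 and 92.97 CPM at P7 to 597.3 and 273.2 CPM at P21. In airway smooth muscle it was at 204.8 and 74.0 CPM and then 345.1 and 303.8 CPM. In vascular smooth muscle the P7 mice had 162.2 and 162.8 CPM and the P21 mice 346.7 and 405.8 CPM. Adventitial fibroblasts held 108.6 and 111.4 CPM at P7 and 190.4 and 188.5 CPM at P21. In all of these classes both P21 mice lay above both P7 mice, and in pericytes too (96.95 and 53.2 CPM at P7, 386.4 and 241.05 CPM at P21). No class passed the test on its own, with edgeR adjusted p from 0.335 to 0.955. Both averaged results ended when single mice were left out: without any 1 of the P1, P7 or P21 mice neither passed. Adamts15 (log2 1.41, SE 0.47) and Adamts17 (log2 1.49, SE 0.53) had averages of like size that did not pass (limma adjusted p = 0.162 and 0.189).

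**Figure D3:**
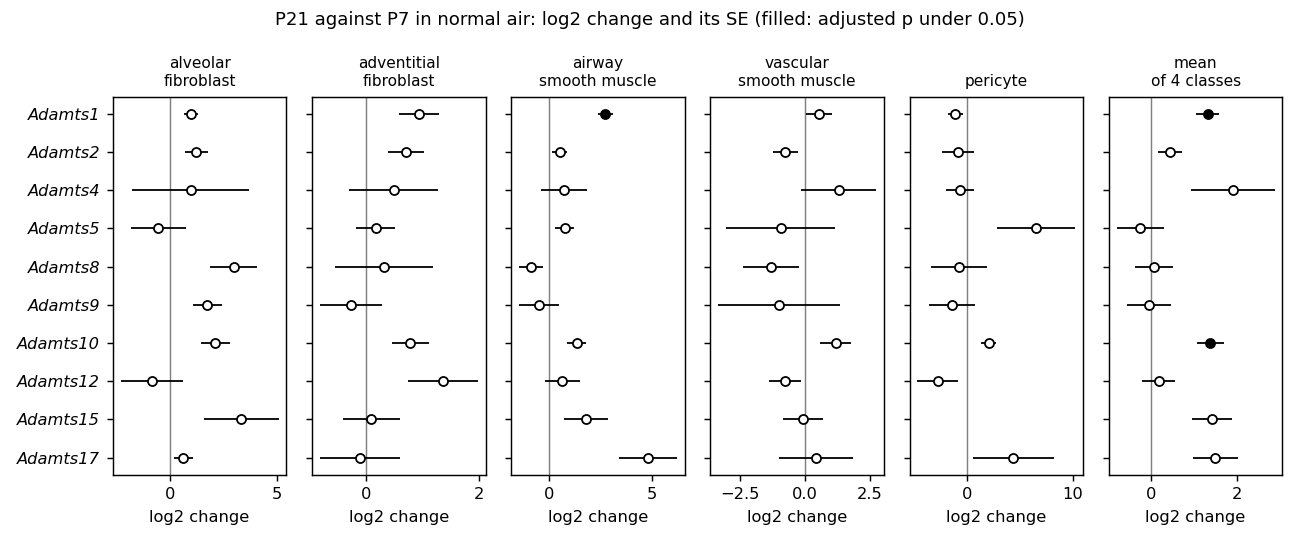
Log2 change from P7 to P21 in normal air (horizontal axis, own range in each panel) of the 10 ADAMTS genes (rows) in 5 cell classes and in the mean of 4 classes. Points are estimates, bars their SE, and filled points have an adjusted p under 0.05. Adamts1 in airway smooth muscle (2.74) and Adamts1 (1.32) and Adamts10 (1.37) in the mean of 4 classes are the filled points.

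Counted over the members, the fitted change after P7 was more often positive in the fibroblasts and the airway muscle than in the vessel wall. Between P7 and P21 the fitted change was positive for 8 of 10 members in alveolar fibroblasts, adventitial fibroblasts and airway smooth muscle each, for 4 of 10 in vascular smooth muscle and for 3 of 9 in pericytes. Over the 4 averaged classes it was positive for 8 of 10, with a median of 0.88 against a median of -0.08 over all genes. The members' median was 1.1 in alveolar fibroblasts, 0.398 in adventitial fibroblasts and 0.743 in airway smooth muscle, against -0.0382, 0.102 and -0.0901 over all genes. In vascular smooth muscle it was -0.42 and in pericytes -0.728, against -0.0876 and 0.198. The share of all genes with a positive change was not counted. With every cell weighed equally the 3 counts of 8 became 7, and these counts carry no test. The shares of all genes that passed from P7 to P21 were 0.0702% in alveolar fibroblasts, 0.124% in adventitial fibroblasts, 0.0886% in vascular smooth muscle and 0.0504% in pericytes, and no member passed there.

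Adamts5 changed with age in airway smooth muscle (edgeR, any change with age, adjusted p = 0.0337). Its level was 12.9 and 15.9 CPM at P1, 87.2 and 89.9 CPM at P7 and 129.1 and 177.5 CPM at P21. The 3 ages did not overlap, and the larger step came first, 6.13-fold from P1 to P7 (log2 2.64, SE 0.49, edgeR adjusted p = 0.316) and 1.73-fold from P7 to P21 (log2 0.76, SE 0.47, edgeR adjusted p = 0.622). In males alone the first step was 5.64-fold. This call passed under 5 of the 15 alternatives that altered the fit, and leaving out any 1 of the 8 mice with such cells ended it (adjusted p 0.0556 to 0.196). Adamts1, which lies next to Adamts5 on chromosome 16, was not higher at P7 than at P1 in the same libraries. In the other classes Adamts5 was also higher at P7 than at P1 in both sexes in alveolar fibroblasts (6.03 and 12.8 CPM, then 82.0 and 38.3 CPM) and adventitial fibroblasts (109.4 and 74.9 CPM, then 157.2 and 184.2 CPM), without passing. The same held in vascular smooth muscle (mean 11.8, then 40.2 CPM) and myofibroblasts (mean 0.0182, then 5.15 CPM), also without passing. The myofibroblasts at P1 held 1 read of Adamts5.

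Adamts8 was higher at P1 than at E18.5 in alveolar fibroblasts (edgeR log2 9.75, SE 1.61, adjusted p = 0.0291). The E18.5 libraries held 14 and 24 cells and together 1 read of Adamts8, and at P1 the levels were 51.2 and 89.6 CPM. The ratio of the pooled levels was 1137.9 (95% interval 204.2 to 44946, counting error only). This comparison called 6.16% of 15670 genes, 99% of them upward, and the median change of all genes was 1.35 (1.14 with RLE scaling, 1.73 with every cell weighed equally). DESeq2 called 3624 genes, 3115 of them upward. A member past such a test is close to its background. The fibroblast precursors, 760 cells at E18.5, held Adamts8 at 19.7 ± 3.16 CPM (n = 2). In later alveolar fibroblasts Adamts8 stood at 42.9 and 17.5 CPM at P7 and 118.3 and 374.9 CPM at P21. The 10 epithelial markers summed to 25.9 to 1092.8 CPM in the E18.5 libraries, with 6 to 8 of them at 0, and to 115.7 to 137.1 CPM at P1. The 10 immune markers summed to 9.36 to 425.7 CPM at E18.5, with 5 to 7 at 0, and to 18.9 to 25.1 CPM at P1. Their part in the Adamts8 result was not tested. The call passed under 9 of 18 alternatives, and leaving out any 1 mouse older than E18.5 ended it (adjusted p 0.0578 to 0.157).

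Adamts2 in adventitial fibroblasts was at 490.1 and 484.1 CPM at P1, 859.7 and 836.3 CPM at P7 and 1322 and 1470 CPM at P21. The 3 ages did not overlap, while the E18.5 mice (356.3 and 706.9 CPM) spanned the P1 values. Neither step passed (log2 0.80, SE 0.32, edgeR adjusted p = 0.829, then log2 0.71, SE 0.32, edgeR adjusted p = 0.495), and any change with age had an adjusted p of 0.105. Adamts17 in alveolar fibroblasts was at 100.9 and 122.3 CPM at P1, 157.1 and 192.3 CPM at P7 and 271.02 and 261.2 CPM at P21, also without overlap and without passing (edgeR adjusted p = 1 and 0.82 for the steps). In airway smooth muscle Adamts17 went from 5.91 and 0.962 CPM at P7 to 97.1 and 73.7 CPM at P21 (log2 4.81, SE 1.40, edgeR adjusted p = 0.224).

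**Figure D4:**
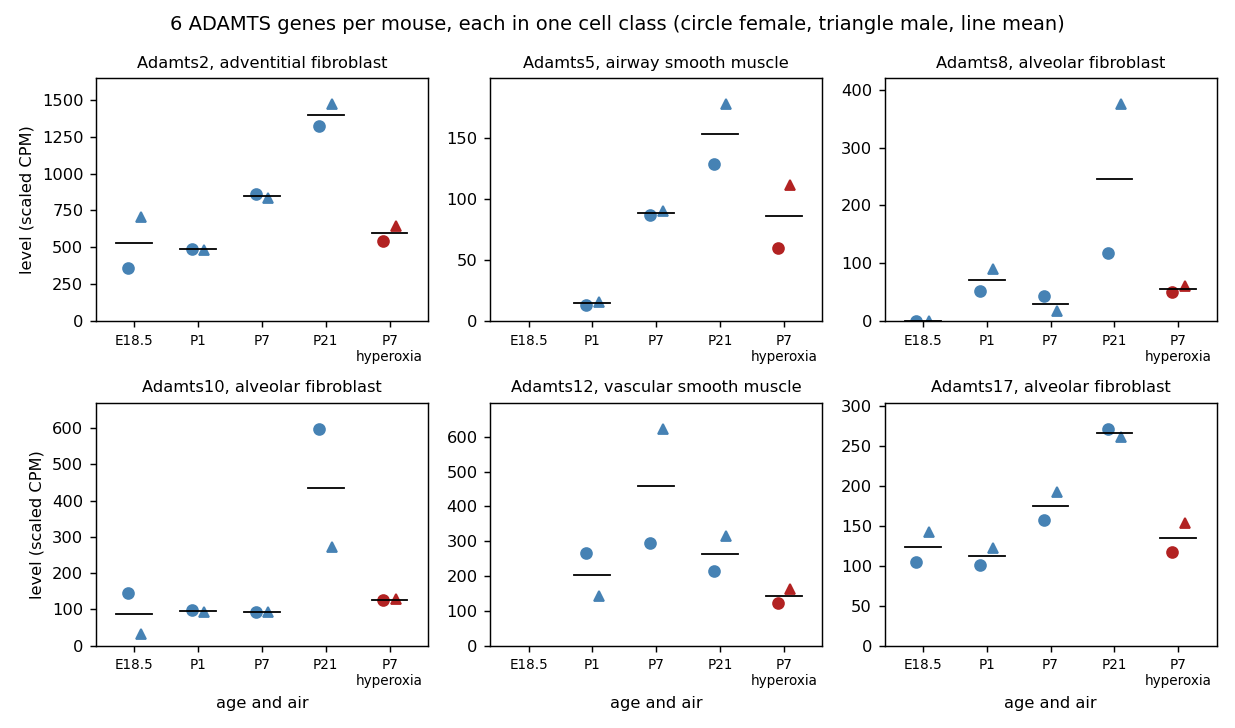
Level in scaled CPM (vertical axis, linear, from 0, own range in each panel) of 6 ADAMTS genes, each in 1 cell class, by age and air (horizontal axis). Circles are females, triangles males, bars the mean of a group, red hyperoxia. Adamts2 in adventitial fibroblasts lies at 490.1 and 484.1 CPM at P1 and at 1322 and 1470 CPM at P21, and its hyperoxia mice (544.7 and 646.6 CPM) lie below both P7 mice in normal air.

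The remaining age tests gave no member. From P1 to P7 no gene passed in any of the 6 classes or in the average of 4 classes (edgeR and limma, 0.0% each). At an unadjusted p under 0.05 stood 2.36% to 8.01% of genes per class, among them 6 pairs of member and class, and DESeq2 called 1.38% to 5.18% of genes and 2 such pairs. Between E18.5 and P1 no member passed in adventitial fibroblasts (0.17% of all genes) or pericytes (0.042%). Any change with age passed for no member in alveolar fibroblasts (0.345%), adventitial fibroblasts (1.1%), vascular smooth muscle (0.0644%), myofibroblasts (0.0%) and pericytes (0.126%). The difference between classes in the change from P1 to P7 passed for no member (0.172%), with 1 member at an unadjusted p under 0.05 and 2 past the threshold in limma voom. Adamts2, Adamts4, Adamts9, Adamts12, Adamts15 and Adamts17 passed no comparison as reported. Adamts12 in vascular smooth muscle was at 265.4 and 141.8 CPM at P1, 295.5 and 622.2 at P7 and 213.3 and 315.5 at P21, ages that overlap, with the male P7 mouse apart from all other mice.

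Hyperoxia moved no member past the threshold in the classes tested, which leave out the cells labelled male hyperoxic fibroblast. Of the 5 classes with enough cells, which exclude pericytes, no gene at all passed in any (0.0% each), and in the average of 4 classes 4 of 16550 genes (0.0242%) passed. DESeq2 called 0.934% to 2.82% of genes per class and no member. At an unadjusted p under 0.05, edgeR listed 2.57% to 8.01% of genes per class, among them 2 members in adventitial fibroblasts, 1 in myofibroblasts and 1 in vascular smooth muscle. Adamts5 in adventitial fibroblasts was at 157.2 and 184.2 CPM in normal air and 83.1 and 97.3 CPM in hyperoxia, 0.528-fold in both sexes (log2 -0.92, SE 0.35, edgeR adjusted p = 0.621). Adamts15 in the same class was at 102.7 and 69.7 CPM and then 32.4 and 37.1 CPM (log2 -1.25, SE 0.51, edgeR adjusted p = 0.621). Adamts8 in myofibroblasts was at 138.9 and 163.8 CPM in normal air and 60.9 and 36.05 CPM in hyperoxia (log2 -1.60, SE 0.54, edgeR adjusted p = 0.729). Adamts12 in vascular smooth muscle was at 295.5 and 622.2 CPM and then 122.6 and 161.6 CPM (log2 -1.66, SE 0.62, edgeR adjusted p = 1). In these 4 cases the groups did not overlap, with hyperoxia lower. In adventitial fibroblasts 7 of 10 members were lower in each hyperoxia mouse than in each mouse of normal air at P7, as were 18.7% of all genes. This held for 6 of 10 members in vascular smooth muscle (17.9% of all genes) and 6 of 10 in myofibroblasts (23.9%), but for 3 of 10 in alveolar fibroblasts (20.2%) and 2 of 10 in airway smooth muscle (19.9%). Both hyperoxia mice were higher for 3 members in alveolar fibroblasts (22.9% of all genes). This held for 1 member each in adventitial fibroblasts (26.5%) and airway smooth muscle (16.6%). It held for no member in vascular smooth muscle (18.6%) and myofibroblasts (23.1%). These counts carry no test.

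Marker genes of other cell types moved with hyperoxia in the same libraries. In adventitial fibroblasts the 4 mesothelial markers summed to 574.9 to 654.1 CPM in hyperoxia, with none at 0, and to 0.0648 to 207.9 CPM in normal air, with at most 1 at 0. The 6 vascular smooth muscle markers were at 2174 to 2286 CPM against 1014.96 to 1519 CPM, and the 7 pericyte markers at 238.97 to 275.4 CPM against 116.2 to 147.4 CPM. The 6 adventitial markers themselves were at 8133 to 9482 CPM in hyperoxia and 7013 to 8031 CPM in normal air. In myofibroblasts the 10 immune markers summed to 94.6 to 136.7 CPM in hyperoxia and 38.9 to 72.9 CPM in normal air. In vascular smooth muscle the 5 myofibroblast markers summed to 745.6 to 1155.2 CPM in hyperoxia and 1328 to 1816 CPM in normal air. The part of these lists in the hyperoxia values of the members was not tested.

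The fitted hyperoxia change was negative for 8 of 10 members in airway smooth muscle, vascular smooth muscle, myofibroblasts and the average of 4 classes, for 7 of 10 in adventitial fibroblasts and for 5 of 10 in alveolar fibroblasts. With every cell weighed equally the counts were 7 in airway smooth muscle, 9 in myofibroblasts and 6 in alveolar fibroblasts, and the other 2 classes kept theirs. The median change was -0.36 in airway smooth muscle, -0.85 in vascular smooth muscle, -0.86 in myofibroblasts, -0.60 in adventitial fibroblasts and -0.01 in alveolar fibroblasts. Over all genes the medians were -0.0563 in airway smooth muscle, -0.00561 in vascular smooth muscle and -0.0138 in myofibroblasts. They were 0.12 in adventitial and 0.0576 in alveolar fibroblasts. In the average the members' median was -0.44, against 0.18 over all genes. The exceptions in the average were Adamts4 (log2 2.07, SE 0.98, limma adjusted p = 0.666) and Adamts17 (log2 0.23, SE 0.53). For both, the sexes went opposite ways in mean log2 CPM. Adamts4 went from 4.48 to 4.14 in the female and from 0.719 to 5.19 in the male. Adamts17 went from 5.18 to 4.71 in the female and from 4.38 to 5.30 in the male. Adamts1 averaged -0.55 (SE 0.27, limma adjusted p = 0.675). No member passed the test of a hyperoxia effect that differs between classes (0.106% of all genes passed), and limma voom called 0. Of 16008 genes, 1225 had an unadjusted p under 0.05 in this test, among them 4 members. The smallest unadjusted p of a member was that of Adamts2, 0.0077 (edgeR adjusted p = 0.388). Adamts2 was lower in hyperoxia without overlap in adventitial fibroblasts (544.7 and 646.6 CPM against 859.7 and 836.3 CPM) and airway smooth muscle (136.8 and 230.3 CPM against 378.5 and 267.3 CPM). The same held in vascular smooth muscle (mean 386.4 against 597.1 CPM) and myofibroblasts (mean 131.1 against 231.4 CPM). In alveolar fibroblasts its values overlapped (186.8 and 320.9 CPM against 221.3 and 180.8 CPM). Since run and hyperoxia cannot be told apart, these values compare mice of different runs.

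**Figure D5:**
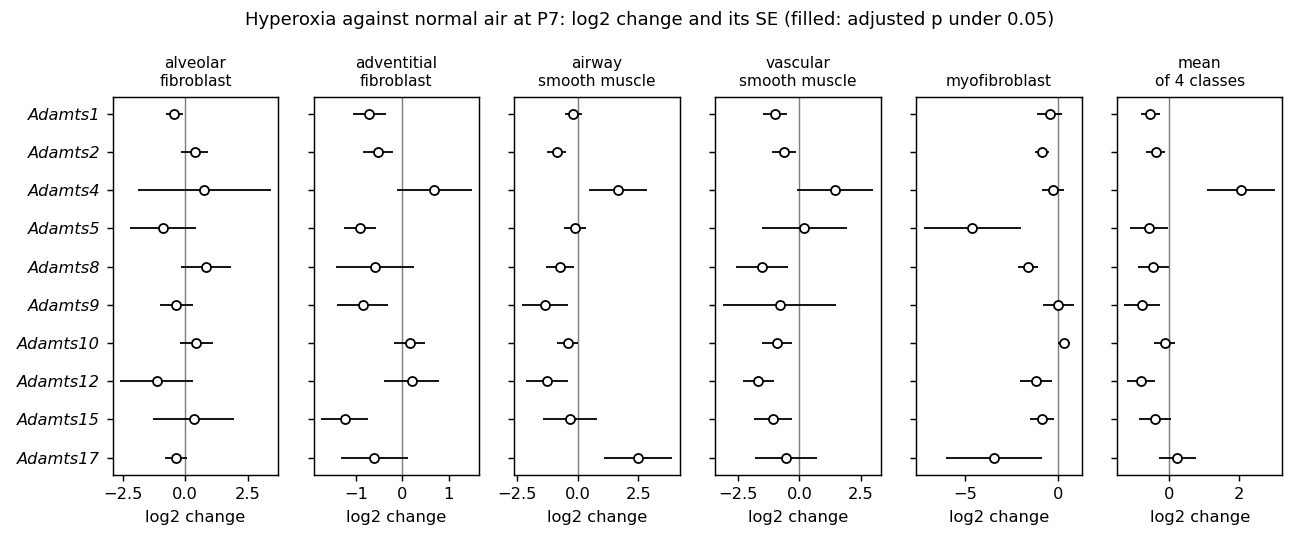
Log2 change in hyperoxia against normal air at P7 (horizontal axis, own range in each panel) of the 10 ADAMTS genes (rows) in 5 cell classes and in the mean of 4 classes. Points are estimates and bars their SE, and no point is filled because none had an adjusted p under 0.05. In the mean of 4 classes 8 of 10 points lie left of 0.

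The genes around the proteases were tested in the same fits. Lists of 44 genes in all (other ADAMTS genes, ADAMTS-like genes, proteoglycan and collagen substrates, microfibril partners, other substrates and cofactors, and genes of activation, inhibition and uptake) had 43 in the table. In airway smooth muscle from P7 to P21, 5 of the 32 tested passed, 2 upward and 3 downward, where 1.13% of all genes passed. The lists were chosen with earlier results of these data known, so such counts are descriptions only. Fbn2, a fibrillin of developing microfibrils, fell by 9.38 on the log2 scale (SE 0.923, edgeR adjusted p = 0.00379), from a mean of 86.3 to 0.136 CPM. Vcan, the gene of versican, a substrate of the Adamts1 product, fell 16.5-fold from 409.4 to 24.8 CPM (log2 -4.07, SE 0.541, edgeR adjusted p = 0.012). Adamts1 rose in the same class between these ages, and a link between the 2 changes was not tested. Ltbp2, a microfibril-bound latent TGF-beta binding protein, fell from 1427 to 106.3 CPM. Sdc4, a cell surface proteoglycan, rose from 212.4 to 1735 CPM (log2 3.03, edgeR adjusted p = 0.00563). The other gene that rose was Ltbp4, which takes part in elastic fibre assembly, and its call ended when any 1 of the 8 mice was left out (adjusted p 0.0728 to 0.443). Fbn2 and Ltbp2 passed without each mouse in turn, whereas Vcan did not pass without the male P7 mouse (adjusted p = 0.0526), nor Sdc4 without the female P7 mouse (adjusted p = 0.0541).

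Timp3, the inhibitor of several members, rose in the average of 4 classes by 3.15 on the log2 scale (SE 0.273, limma adjusted p = 0.000252). Its class means went from 144.2 to 3046 CPM in vascular smooth muscle, from 333.8 to 1878 in adventitial fibroblasts, from 376.2 to 1316 in airway smooth muscle and from 88.8 to 1227 in alveolar fibroblasts. Of these classes it passed on its own in vascular smooth muscle (log2 4.47, edgeR adjusted p = 0.0141), a call that ended without either P7 mouse (adjusted p = 0.0965 and 0.0739). Averaged over the 4 classes, 8 of 40 tested list genes passed, 5 upward (Timp3, Sdc4, Adamtsl1, Ltbp4 and Col3a1) and 3 downward (Fbn2, Fn1 and Ltbp2). Of all genes, 1.97% passed in this average. Timp3 and Fbn2 passed without each of 8 mice in turn, whereas the call ended on leaving out 1 of the 8 mice for Sdc4, any 1 of 2 for Fn1, Ltbp2 and Ltbp4, any 1 of 6 for Col3a1 and any 1 of 7 for Adamtsl1. In vascular smooth muscle Fbn2 and Fbln2 also fell, calls that ended on leaving out any 1 of 5 and any 1 of 3 of the 8 mice. In pericytes Fn1, the fibronectin gene, fell from 130 to 0.436 CPM, a call that ended without either P21 mouse (adjusted p = 0.191 and 0.192). Of the other ADAMTS genes, 7 were tested in the average and none passed. Their median change was -1.47, with 6 of 7 negative, and Adamts13 and Adamts18 were at most at 0.831 CPM in any mouse. In hyperoxia no list gene passed in any class or in the average, and the 6 microfibril partners all had a negative average change, with a median of -0.59. Any change with age passed for 6 of 39 list genes in adventitial fibroblasts, 3 of them collagens, where 1.1% of all genes passed. It passed for 6 of 32 in airway smooth muscle (1.33% of all genes). In vascular smooth muscle (0.0644%) and pericytes (0.126%) it passed for 1 each, Timp3 and Fn1. Of the adventitial collagen calls, that of Col3a1 held without each of 10 mice in turn. That of Col1a1 ended on leaving out any 1 of the 10 mice, and that of Col1a2 any 1 of 6. Adamtsl4 passed between E18.5 and P1 in alveolar fibroblasts, a call that ended on leaving out any 1 of 8 of the 10 mice. For the difference between classes, Col1a1 and Ltbp1 passed from P1 to P7, and Adamtsl3 from P7 to P21 (edgeR adjusted p = 0.0395). The call ended on leaving out any 1 of the 4 mice compared for Col1a1 and Adamtsl3, and any 1 of 3 of them for Ltbp1.

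Genes with the pattern most like each member were found by Pearson's r of log2(CPM + 1) over the 64 libraries of subtype and mouse. The genes considered had a mean of at least 10 CPM over these libraries. These r are descriptions, since libraries of 1 mouse share their run and depth. For Adamts1 the closest were Nfkbiz (r = 0.80), Zfp36l1 (0.75) and Cebpd (0.75), which take part in rapid responses to inflammatory signals or in the decay of messenger RNA. In airway smooth muscle from P7 to P21, Nfkbiz went from 94.6 and 110 CPM to 1701 and 1352 CPM (log2 3.88, edgeR adjusted p = 0.00641) and Cebpd from 99.2 and 145.7 CPM to 1761 and 2268 CPM (log2 4.04, edgeR adjusted p = 0.00965). For Adamts2 they were Scpep1 (0.82), Ltbp1 (0.81) and Loxl1 (0.79), and for Adamts15 Ltbp1 (0.79), Loxl1 (0.74) and Eln (0.73), so that 2 genes of elastic fibre assembly, Ltbp1 and Loxl1, were near both. Adamts17 was closest to Slc1a3 (0.88), Adamts10 to Ptpra (0.79), Adamts5 to Ptgis (0.76), Adamts9 to Tmem176a (0.71), Adamts8 to Rora (0.70), Adamts12 to Snx18 (0.65) and Adamts4 to Ephx1 (0.61). Between members, r was highest for Adamts2 and Adamts15 (0.72), Adamts1 and Adamts17 (0.69) and Adamts2 and Adamts5 (0.66). The neighbouring pairs on a chromosome were at 0.29 for Adamts1 and Adamts5 and at 0.60 for Adamts8 and Adamts15. Adamts4 lay between -0.29 and 0.22 with every other member.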

How the data were processed

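Single cells of 10 mice had been sequenced in plates with Tn5 transposase, per the labels' protocols. The deposited values were whole-number read counts per gene and cell, not normalized by the authors. The submitters' processing notes name STAR 2.5.2b, HTSeq 0.10 and build GRCh38, a human build, so the build behind these mouse counts is unclear. The annotation and filters are not given in the sources used here, and reads that overlap neighbouring genes are uncertain. Mouse, age, air, sequencing run and subtype came from the labels. All count columns were used (0 left out), and each column was read by its mouse's name pattern. No doublet caller was run, and cells were not clustered again.

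Counts were summed per mouse and class with at least 10 cells and tested in edgeR 4.0.16 (R 4.3.3) with TMM scaling, filterByExpr and the quasi-likelihood test, with terms for sex and group and all groups in a fit. Means of log2 CPM over 4 classes (prior count 1) were tested in limma 3.58.1. Tests are two-sided. With 2 mice a group, the spread behind a p-value was estimated over all groups in the fit and moderated across genes. The p-values therefore do not measure the spread between the 2 mice of the groups compared alone. Differences between classes were class by group terms with the mouse as a fixed term. Fits were tested on simulated data with 200 genes changed 4-fold. Exon lengths came from GENCODE M21 and promoters from RefSeq.

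All 10 members were tested in every comparison where their counts passed the filter. The rule was to name each of them, and values are printed for those the results turn on, with the others as counts. Of the lists, the rule was to name genes past the threshold with at least 10 CPM in 1 group, at most 4 a comparison by size of change. Names beyond these were added after their values were seen. The 3 genes nearest each member were considered for likeness. The members and lists were chosen with earlier results of these data known. DESeq2 1.42.0, limma voom, RLE scaling, other filters and cell weights, and leaving out each mouse were tried as alternatives. The early response list and leaving out both E18.5 mice were chosen after seeing the data.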

Additional observations from a re-analysis of the deposited data

Results flagged for a closer look

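In subtypes with 5, 6 or 8 libraries, all ages and airs together, 1 library stood far from the others in 13 of 70 sets of gene and subtype by Dixon's criterion, which chance meets in about 1 of 20 sets. The ages are mixed in these sets, and their part was not tested. Among the smooth muscle cells, Adamts12 in vascular smooth muscle was at 570.5 CPM in the male at P7 in normal air, against 145.4 to 306.6 CPM in the other 7 mice, and the cell with the most reads gave 14.0% of them. In early airway smooth muscle the female at P7 in normal air stood apart for Adamts9, the protease of versican (127.1 CPM against 21.8 to 52.3 CPM), and for Adamts12 (49.8 CPM against 12.7 to 24.1 CPM). Adamts17 in vascular smooth muscle was at 161.04 CPM in the male at P21, where 1 of 19 cells gave 99.1% of the reads. Adamts9 in the same subtype was at 59.6 CPM in the male at P1, where 1 of 16 cells gave 59.3%.

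In myofibroblasts Adamts1 was at 303.3 CPM in the female at P1, against 28.0 to 101.2 CPM in the other 5 mice, and Adamts10 was at 345.7 CPM in the male in hyperoxia, against 173.1 to 234.8 CPM. Adamts17 was at 11.4 CPM in myofibroblasts of the male at P7 in normal air. In pericytes 3 members were apart in 1 mouse each, Adamts2 at 247.3 CPM in the male at P1, Adamts17 at 11.8 CPM in the female at E18.5 and Adamts15 at 0.922 CPM in the female at P1, the last from 12 reads. Among fibroblasts, Adamts9 was at 127.5 CPM in early alveolar fibroblasts of the male at E18.5, 24 cells of which 1 gave 39.2% of the reads, and Adamts8 was at 70.8 CPM in early adventitial fibroblasts of the male at P1.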

How the results depend on the processing

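The counts of member and class past the threshold were small and moved with the settings. For most settings the share of all genes called is not given beside these counts, so they are not results about the members. For any change with age (2 as reported) there were 8 in DESeq2, 9 with at least 20 cells per library, 1 with cells weighed equally, 1 with only the mice compared, 4 without the term for sex, 4 without both E18.5 mice and 0 to 9 when single mice were left out, with 9 without the female and 8 without the male E18.5 mouse and 0 without the male P21 mouse. From E18.5 to P1 (1) there were 4 in DESeq2, 2 with RLE factors, 4 with at least 20 cells, 3 with cells weighed equally, 0 with only the mice compared, 2 without the term for sex and 0 to 4 when single mice were left out, with 4 without the female and 2 without the male E18.5 mouse and 0 without any other. From P1 to P7 (0) there were 2 in DESeq2 and 0 to 1 when single mice were left out, with 1 without the male P1 mouse. From P7 to P21 (1) there were 3 in DESeq2, 2 with at least 20 cells, 3 without both E18.5 mice and 0 to 2 when single mice were left out, with 0 without the male P7 mouse and 2 without either E18.5 mouse. In limma voom the differences between classes gave 2 for P1 to P7 and 2 for P7 to P21, each against 0. The average of 4 classes from P7 to P21 (2) had 0 without the filter on low counts and 0 to 2 when single mice were left out, with 0 without any P1, P7 or P21 mouse in normal air and 1 without either hyperoxia mouse. In hyperoxia (0) single mice gave 0 to 1, with Adamts8 in myofibroblasts passing without the male P1 mouse, and the class difference gave 0 to 1, with 1 without the female P7 mouse. The averages for hyperoxia and for P1 to P7 stayed at 0 throughout. The cause of these moves was not tested. Of 1377 values of single genes under alternatives that altered their fit, 12.1% lost the call, 3.05% gained it and 1 reversed, the log2 change of Adamts8 from E18.5 to P1 in pericytes, which was -0.0301 to 12.8 when single mice were left out and below 0 without the male P1 mouse. Over all genes from P7 to P21, DESeq2 called 3.67% to 8.62% of those tested per class, with 48.9% of the calls upward in airway smooth muscle against 65.1% in edgeR, and 55.7% against 90.9% in alveolar fibroblasts. No paired analysis was possible because replicate numbers name cells in accession order and no number links mice of different groups. Low members such as Adamts15 in pericytes rested on few reads, and how depth acted on the calls was not tested.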
